A study of Mus musculus with 6 samples.

Results

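The genes of the translation initiation factors were taken from a gene count table of mouse CD4+ T cells as every row whose symbol begins with Eif and a digit from 1 to 6. The Y-linked gene Eif2s3y, the splicing-associated helicase gene Eif4a3 and 9 pseudogene rows were left out. This gave 58 of 26469 gene rows, and 54 of them passed the filter on low counts, beside 18323 tested genes in all. The 4 members that did not pass, Eif1ad3, Eif1ad4, Eif1ad15 and Eif1ad18, had 0 to 4 counts in each library. By symbol, the tested members fell into 5 genes of eIF2 and the factors named after it, 5 of eIF2B, 4 kinases of eIF2, 14 of eIF3, 16 of eIF4 and its binding proteins, and 10 of eIF1, eIF5 and eIF6. The 2 rows Eif4a3l1 and Eif4a3l2 are named after Eif4a3, which was left out. They match the naming rule and were kept with eIF4.

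The study asked how Sf3b1 K700E, a substitution found in cancers, affects the formation of regulatory T cells. Sf3b1 encodes a part of the U2 snRNP, which recognises the branch point of introns. Naive CD4+ T cells from spleen were cultured for 36 h with TGF-β at 5 ng/ml, antibodies to CD3 and CD28, and antibodies that block IL-4 and IFNγ. RNA of the CD4+ cells was depleted of ribosomal RNA and sequenced. The 3 mutant libraries are labelled as Sf3b1 mutation and, per the series design, come from Sf3b1K700E/fl mice that carry Cd4Cre. The 3 control libraries are labelled WT and come from Sf3b1K700E/fl mice without Cre, so both groups carry the conditional allele. Cd4-driven Cre acts in developing T cells of both the CD4 and the CD8 lineage, so recombination comes before the culture. Age and sex are not given by the labels, and nothing states that each library is a separate animal. The p-values here measure the spread between these libraries, which may be technical in part.

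Initiation begins when eIF2, bound to GTP and the initiator tRNA, joins the small ribosomal subunit together with eIF1, eIF1A, eIF3 and eIF5. The eIF4F complex brings this assembly to an mRNA: eIF4E holds the cap, eIF4G is the scaffold and eIF4A the helicase. Both steps are regulated. Phosphorylation of eIF2 by stress-sensing kinases blocks its recharging by eIF2B, and the eIF4E-binding proteins keep eIF4E from eIF4G unless mTORC1 phosphorylates them. Naive T cells translate little and raise the output of this machinery after activation, with MYC and mTORC1 among the known drivers. RNA levels do not report phosphorylation or translation.

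Library totals ran from 34524411 to 36867281 counts in mutant and from 33633157 to 43928682 in control. Levels are given in CPM, counts relative to a library size scaled by TMM. Sf3b1 itself had 649, 593 and 639 CPM in mutant 1, 2 and 3, against 632, 712 and 638 CPM in control 1, 2 and 3, and gene counts do not show the allele. Summed T cell markers ran from 1997 to 2689 CPM in mutant and from 1819 to 2461 CPM in control. B cell markers summed to 45.2 CPM in mutant 2, against 9.78 CPM or less in each other library, and CD8 markers to 40.4 CPM in control 1, against 17.3 CPM or less. Erythroid and NK markers summed to 2.73 CPM or less in every library. Control 1 held Xist at 3475 CPM and Eif2s3y at 0, while the other 5 libraries held Xist below 1 CPM. Libraries of a group differed by more than sampling noise in every pair.

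Over all 54 tested members, 43 had a lower mean in mutant and 11 a higher one, a share of 79.6% lower against 47.1% of all genes tested. The differences were small. The median log2 fold change, mutant minus control, was -0.16 for the members and 0.02 for all genes. No member passed edgeR's quasi-likelihood test at an adjusted p of 0.05, where the background was 0% of 18323 genes, and the smallest adjusted p of a member was 0.598. At an unadjusted p of 0.05 by edgeR, which 7.62% of all genes passed, 5 members were lower and 0 were higher, against 3.48% and 4.14% of all genes. Limma-voom called 0% of genes at its adjusted threshold and 7.08% at an unadjusted p of 0.05. DESeq2, run as an alternative, called 0.64% of 15627 genes, 0.307% as lower in mutant, and 1 of the 53 members to which it gave an adjusted p, Eif4ebp1. In bulk RNA, fewer cells of a type and less RNA per cell cannot be told apart.

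**Figure D1:**
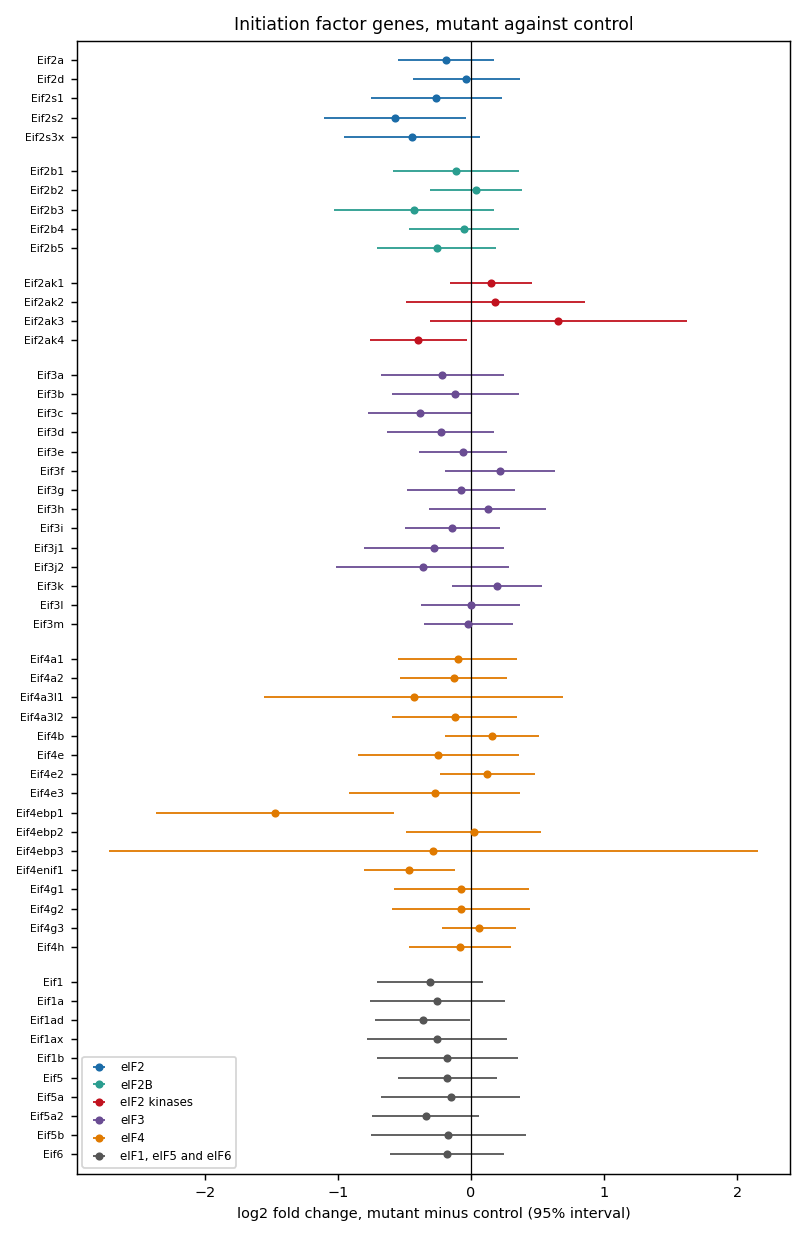
Log2 fold change (horizontal axis, mutant minus control) of the 54 tested initiation factor genes, 1 row per gene, with bars for the 95% interval and colours for the groups of factors. Most points lie left of 0, and Eif4ebp1 stands lowest at -1.47, while its binding partner Eif4e and most other intervals include 0.

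The 3 mutant libraries were not alike. Mutant 1 had 36 of the 54 members below all 3 controls and 9 above all of them, and mutant 2 had 30 below and 3 above. Mutant 3 had 10 below and 12 above. The share of all genes outside the control range was not counted for any library. These counts therefore have no background beside them. Relative to the control mean, the mean level of all members on the log2 CPM scale was -0.33, -0.23 and -0.03 in mutant 1, 2 and 3, against -0.06, 0.11 and -0.05 in control 1, 2 and 3. The mean of mutant 2 includes Eif4ebp3, which had 0 counts there and stood at -3.78. Control 2 had the highest mean of all 6 libraries. Leaving out mutant 1 gave 33 members lower and 21 higher with a median of -0.04, and leaving out control 2 gave 29 lower and 25 higher with a median of -0.04. Without mutant 3, the median was -0.29, and at an unadjusted p of 0.05 by edgeR 15 members were lower and 1 higher, against 5.21% and 7.66% of all genes in the same fit. Mutant 1 also had a lower mean log2 level of activation markers and a higher one of naive markers, given with the other gene lists. The part of this in the levels of the initiation factors was not tested.

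**Figure D2:**
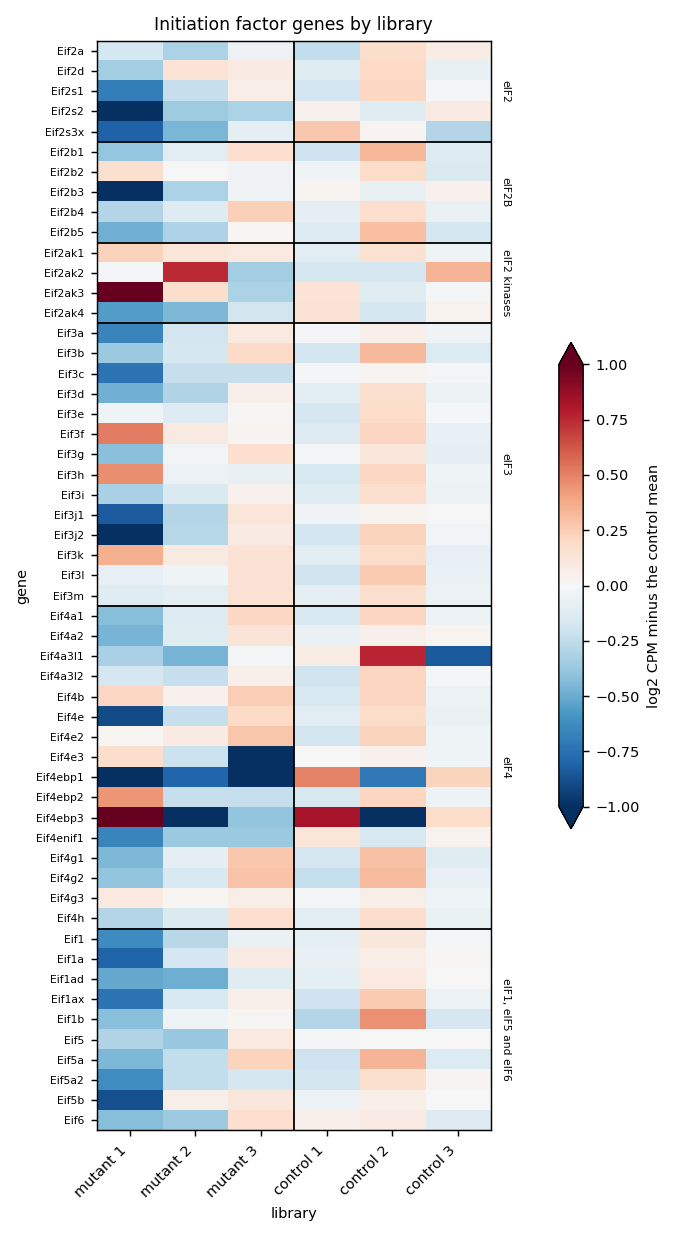
Log2 CPM minus the control mean (colour scale) for the 54 tested members (rows, by group) in the 3 mutant and 3 control libraries (columns). Mutant 1 shows the deepest blue in most rows, with red rows such as Eif2ak3, Eif3f, Eif3h and Eif4ebp2, and mutant 3 is close to the controls in most rows.

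Groups of mutant and control libraries that do not overlap were found for 6 members, all lower in mutant: Eif4ebp1, Eif4enif1, Eif2s2, Eif2ak4, Eif3c and Eif1ad. That is 11.1% of the tested members, against 7.48% of all genes tested. No member was higher in every mutant library, against 6.6% of all genes. The 6 genes encode parts of different steps: a pair of eIF4E binders, a subunit of eIF2, a kinase of eIF2, a core subunit of eIF3 and a protein that shares a domain with eIF1A. The count depended on single libraries and ran from 5 without mutant 2 to 25 without mutant 3. With fewer libraries groups are apart more often, and the share of all genes lower without overlap was 11.3% without mutant 2 and 16.1% without mutant 3, against 9.26% and 46.3% of the members.

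**Figure D3:**
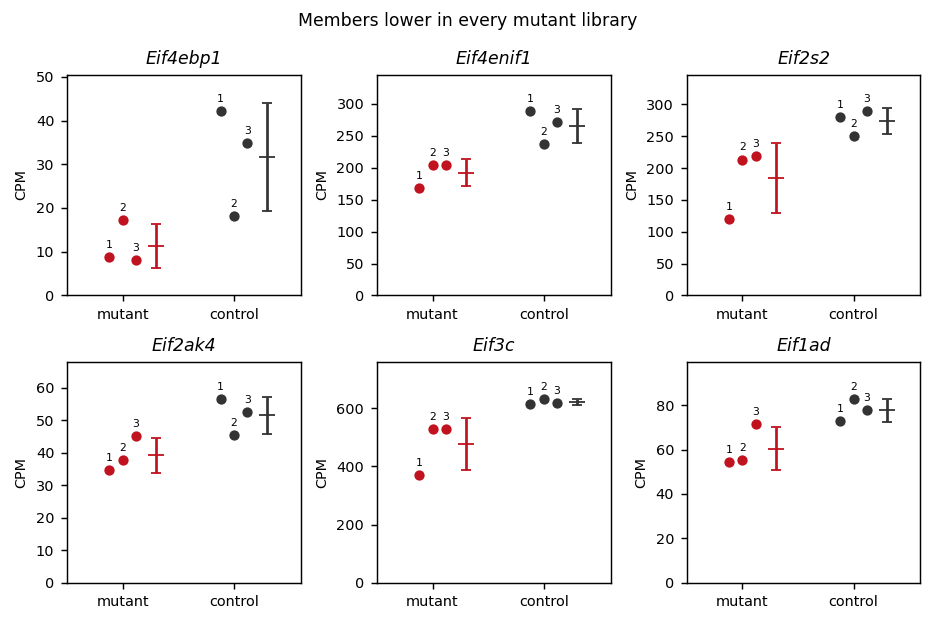
CPM (vertical axis, from 0) of the 6 members whose mutant and control libraries do not overlap. Points are libraries with their number, and bars are the mean ± SD of 3. Eif4ebp1 has the largest fold difference of the 6, with 8.20 to 17.2 CPM in mutant and 18.2 to 42.1 CPM in control.

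For the 4 genes of the eIF4E binders, log2 fold changes averaged -0.55, and the median was -0.37. The mean was -0.87 without mutant 1, -0.37 without control 1 and -0.89 by limma-voom. It includes Eif4ebp3, which had only 0 to 51 counts in each library. Eif4ebp1 (ENSMUSG00000031490), which encodes the repressor 4E-BP1, had 8.76, 17.2 and 8.20 CPM in mutant 1, 2 and 3, against 42.1, 18.2 and 34.8 CPM in control 1, 2 and 3. These rest on 310, 608 and 302 counts in mutant and 1450, 740 and 1263 counts in control. Mutant 1 and mutant 3 lay well below every control, while mutant 2 and control 2 were nearly the same. The mean was 11.4 ± 5.05 CPM in mutant and 31.7 ± 12.3 CPM in control (SD, n = 3 each), a log2 fold change of -1.47 ± 0.39 (SE; 95% interval -2.37 to -0.58). Its adjusted p was 0.598 by edgeR's quasi-likelihood test and 0.0283 by DESeq2. With single libraries left out, the DESeq2 adjusted p was 0.0628 without mutant 3, 0.564 without control 1 and 0.705 without control 3. Each of these ended the call, and the DESeq2 adjusted p was 0.042 or less without any other library. Over the whole table DESeq2 called 374 genes without mutant 3, 13 without control 1 and 17 without control 3, against 100 with all libraries.

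Eif4enif1 (ENSMUSG00000020454) encodes 4E-T, which carries eIF4E into the nucleus and into processing bodies. It had 168, 205 and 204 CPM in mutant 1, 2 and 3, against 288, 237 and 271 CPM in control 1, 2 and 3. All 3 mutant libraries lay below the lowest control, control 2. Its log2 fold change was -0.47 ± 0.15 (95% interval -0.81 to -0.12), with an edgeR adjusted p of 0.629. Eif4ebp2, the second 4E-BP gene and the more abundant one in these cells, had 418, 261 and 260.0 CPM in mutant 1, 2 and 3, against 274, 357 and 296 CPM in control 1, 2 and 3. Only mutant 1 was above the controls, and mutant 2 and mutant 3 were below them. Its log2 fold change was 0.02 ± 0.22, with an interval from -0.49 to 0.53. Eif4ebp3, the third gene of the family, stayed at 1.44 CPM or less in every library, with 0 counts in mutant 2.

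Ratios within a library give the balance inside the family and do not depend on scaling. The log2 ratio of Eif4ebp1 to Eif4ebp2 was -5.58, -3.92 and -4.99 in mutant 1, 2 and 3, against -2.70, -4.30 and -3.09 in control 1, 2 and 3. Control 2 had the lowest control ratio, and mutant 2 lay above it. The ratio of Eif4ebp1 to its target Eif4e differed by -1.17 on the log2 scale, mutant minus control, with groups that overlapped. With single libraries left out the difference ran from -1.62 without control 2 to -0.71 without mutant 3. Per kilobase of exon, the mean level of Eif4ebp1 was 5.19 CPM in mutant and 14.4 CPM in control, and that of Eif4ebp2 was 54.1 CPM in mutant and 53.4 CPM in control.

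For the core of eIF4F, the groups of all 3 genes overlapped and the intervals were wide. Eif4e, the cap-binding subunit, had 85.8, 136 and 184 CPM in mutant 1, 2 and 3, against 148, 182 and 153 CPM in control 1, 2 and 3. Mutant 1 and mutant 2 were below the controls and mutant 3 above them. The log2 fold change of Eif4e was -0.25 ± 0.26, with an interval from -0.85 to 0.36. With single libraries left out it ran from -0.54 without mutant 3 to 0.0078 without mutant 1. Eif4g1, the main scaffold, had 636, 816 and 1046 CPM in mutant 1, 2 and 3, against 769, 1059 and 798 CPM in control 1, 2 and 3. Its groups overlapped widely, and the log2 fold change of -0.07 ± 0.22 had an interval from -0.58 to 0.43. Eif4a1, the helicase, had 327, 401 and 507 CPM in mutant 1, 2 and 3, against 394, 510.4 and 420.5 CPM in control 1, 2 and 3, a log2 fold change of -0.10 ± 0.19. The pseudogene row Eif4a-ps4 held 70.3% of the summed counts of the pair, so the level of Eif4a1 is uncertain. With both rows summed the log2 fold change was -0.16. In all 3 genes mutant 1 was the lowest library.

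Among the remaining eIF4 genes, Eif4a2, Eif4h, Eif4g2, Eif4e3, Eif4a3l1 and Eif4a3l2 had log2 fold changes from -0.43 to -0.08. The value of -0.43 was that of Eif4a3l1, which had 13 to 49 counts in each library. Eif4b, a helper of the helicase, Eif4g3 and Eif4e2 were at 0.16, 0.06 and 0.12. Every one of these 9 had groups that overlapped. Eif4e3, a cap-binding paralog of eIF4E, was at 22.1 to 23.4 CPM in the controls and at 25.7, 19.6 and 11.3 CPM in mutant 1, 2 and 3.

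MYC and its partners bind the E-box CACGTG, and Eif4e, Eif4g1 and Eif4a1 are known MYC targets. Their promoters are shown because each of the 3 genes has a RefSeq start with this motif within 250 bases upstream, in capitals here and read 5′ to 3′ on the gene's strand (GRCm38.p6). The windows are chr3:138527018-138527267 on the plus strand for Eif4e, chr16:20672477-20672726 on the plus strand for Eif4g1 and chr11:69672424-69672673 on the minus strand for Eif4a1.
Eif4e: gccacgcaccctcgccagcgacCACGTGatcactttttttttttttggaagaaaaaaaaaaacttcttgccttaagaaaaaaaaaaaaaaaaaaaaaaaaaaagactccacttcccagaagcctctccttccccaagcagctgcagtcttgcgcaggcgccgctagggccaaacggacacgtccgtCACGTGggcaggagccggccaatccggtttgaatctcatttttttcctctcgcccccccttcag
Eif4g1: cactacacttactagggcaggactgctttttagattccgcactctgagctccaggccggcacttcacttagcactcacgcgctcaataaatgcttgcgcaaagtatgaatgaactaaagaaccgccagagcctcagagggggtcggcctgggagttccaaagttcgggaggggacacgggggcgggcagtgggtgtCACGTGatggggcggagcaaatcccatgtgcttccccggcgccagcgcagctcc
Eif4a1: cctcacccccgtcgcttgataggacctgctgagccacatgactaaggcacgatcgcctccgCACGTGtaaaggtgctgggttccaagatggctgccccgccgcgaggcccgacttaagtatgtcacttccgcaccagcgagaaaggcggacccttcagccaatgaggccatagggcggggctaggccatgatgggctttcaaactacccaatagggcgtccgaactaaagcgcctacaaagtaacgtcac
The first base of the motif lies at -228 and -64 in Eif4e, at -54 in Eif4g1 and at -189 in Eif4a1, counted from the start. The motif reads the same on both strands. Eif4e has another start in the table, with the window chr3:138525941-138526240, which held no CACGTG upstream. Of the 54 tested members, 42 had an entry in the promoter table, and 9 of these held CACGTG upstream: Eif1b, Eif3f, Eif3k, Eif4a1, Eif4e, Eif4g1, Eif4h, Eif5a and Eif5a2. Of these, Eif3f and Eif3k had higher means in mutant, with log2 fold changes of 0.22 and 0.20, and the others had lower means. By windows, 11 of 55 member windows held the motif (20%), against 1978 of all 32851 windows (6.02%). A gene can have more than 1 window, as Eif5a does. A match describes the letters only. Myc had 252, 226 and 281 CPM in mutant 1, 2 and 3, against 307, 285 and 309 CPM in control 1, 2 and 3, and all mutant values lay below the controls. Its log2 fold change was -0.25.

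The 5 members named after eIF2 all had lower means in mutant, and their log2 fold changes averaged -0.30. Without mutant 1 the average was -0.15 and Eif2d turned to 0.11. Eif2s2 (ENSMUSG00000074656), the beta subunit, which contacts the tRNA and eIF5, had 120.4, 213 and 219 CPM in mutant 1, 2 and 3, against 281, 250.5 and 289 CPM in control 1, 2 and 3. No mutant value reached the lowest control. Eif2s2 had a log2 fold change of -0.57 ± 0.23 (95% interval -1.10 to -0.03) and an edgeR adjusted p of 0.645, and it was -0.33 without mutant 1. Eif2s1, the alpha subunit that the kinases phosphorylate, had 155, 214 and 262 CPM in mutant 1, 2 and 3, against 219.7, 289.8 and 247 CPM in control 1, 2 and 3. Mutant 3 lay among the controls, and the log2 fold change was -0.26 ± 0.21. Eif2a and Eif2d, which encode separate initiator tRNA-binding proteins, were at -0.19 and -0.04.

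Eif2s3x encodes the gamma subunit, the GTPase, from the X chromosome, and male mouse cells also use its Y-linked copy. It had 249.5, 319.6 and 408 CPM in mutant 1, 2 and 3, against 528, 445 and 357 CPM in control 1, 2 and 3. Control 1, the library with Xist RNA, was the highest, and mutant 3 overlapped the controls. This gave a log2 fold change of -0.44 ± 0.22 (95% interval -0.96 to 0.07). With Eif2s3y added, the pair summed to 311, 420 and 503 CPM in mutant 1, 2 and 3, against 528, 551 and 455 CPM in control 1, 2 and 3, a log2 fold change of -0.31 ± 0.20. The log2 ratio of Eif2s3x to Eif2s1 was 0.69, 0.58 and 0.64 in mutant 1, 2 and 3, against 1.26, 0.62 and 0.53 in control 1, 2 and 3, so control 1 stood apart from all other libraries.

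The first bases of 2 members are shown because they open with a C and a long run of pyrimidines. Such a start is the TOP motif, through which mTORC1 controls the translation of ribosomal protein and many factor mRNAs. Capitals mark the run of 11 pyrimidines from the RefSeq start (GRCm38.p6), at chr7:108934415-108934439 on the plus strand for Eif3f and at chrX:94212627-94212651 on the minus strand for Eif2s3x.
Eif3f: CTCTCTTTCTCggcaagatggcttc
Eif2s3x: CTTTTCTCTCCgagcaagatggctg
A run of at least 5 pyrimidines from a C at the start was present in 2 of 55 member windows (3.64%) and in 823 of all 32851 windows (2.51%), read on the gene's strand. Starts in RefSeq can differ from those used in these cells.

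The eIF2B subunits, which together reload eIF2 with GTP, showed smaller differences: their log2 fold changes averaged -0.16, and -0.042 without mutant 1, -0.064 without control 2 and -0.30 without mutant 3. The groups of every subunit overlapped. Eif2b3 (gamma) had 18.1, 32.1 and 38.8 CPM in mutant 1, 2 and 3, against 40.7, 37.8 and 41.2 CPM in control 1, 2 and 3. Mutant 1 was far below and mutant 3 within the control range. In the fit this was a log2 fold change of -0.43 ± 0.26, and -0.16 without mutant 1. Eif2b5 (epsilon, the catalytic subunit) had 68.8, 77.5 and 97.6 CPM in mutant 1, 2 and 3, against 87.9, 119 and 85.3 CPM in control 1, 2 and 3. Mutant 1 and mutant 2 lay below the controls, and the log2 fold change was -0.26 ± 0.19.

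The regulatory subunits of eIF2B, which sense phosphorylated eIF2, overlapped between groups. Eif2b1 (alpha) had 46.5, 56.2 and 68.3 CPM in mutant 1, 2 and 3, against 52.6, 76.4 and 55.6 CPM in control 1, 2 and 3, with a log2 fold change of -0.11 ± 0.20. Eif2b2 (beta) had 39.7, 35.4 and 34.5 CPM in mutant 1, 2 and 3, against 34.5, 40.3 and 32.0 CPM in control 1, 2 and 3, with a log2 fold change of 0.04 ± 0.15. Eif2b4 (delta) had 26.8, 30.0 and 38.7 CPM in mutant 1, 2 and 3, against 30.6, 36.9 and 31.4 CPM in control 1, 2 and 3, with a log2 fold change of -0.05 ± 0.18. In these genes, leaving out 1 library could turn the sign.

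The 4 kinases of eIF2 did not share a direction, and their mean log2 fold change was 0.15, against 0.015 without mutant 1, 0.25 without mutant 3 and 0.083 by limma-voom. Eif2ak4 (ENSMUSG00000005102) encodes GCN2, which senses uncharged tRNA when amino acids are short. It had 34.8, 37.6 and 45.1 CPM in mutant 1, 2 and 3, against 56.7, 45.5 and 52.5 CPM in control 1, 2 and 3. The highest mutant value lay just under the lowest control. Its log2 fold change was -0.40 ± 0.16 (95% interval -0.76 to -0.03), with an edgeR adjusted p of 0.645.

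Eif2ak3 encodes PERK, the kinase of the endoplasmic reticulum stress response. It had 123, 49.1 and 35.0 CPM in mutant 1, 2 and 3, against 47.8, 40.0 and 43.3 CPM in control 1, 2 and 3. Mutant 1 was far above all other libraries, and mutant 3 was the lowest. The log2 fold change of 0.66 ± 0.42 had an interval from -0.31 to 1.62, and without mutant 1 it was -0.04. The log2 ratio of Eif2ak3 to Eif2ak4 was 1.82, 0.38 and -0.37 in mutant 1, 2 and 3, against -0.24, -0.18 and -0.28 in control 1, 2 and 3, so the mutant libraries lay on both sides of a narrow control range.

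The other two kinases overlapped between groups. Eif2ak2 encodes PKR, which binds double-stranded RNA and is induced by interferon. It had 36.7, 61.9 and 29.0 CPM in mutant 1, 2 and 3, against 32.8, 32.9 and 46.6 CPM in control 1, 2 and 3. Mutant 2, the library with the most B cell marker RNA, was highest, and the part of those cells in the value was not tested. The log2 fold change was 0.18 ± 0.29, and -0.17 without mutant 2. Eif2ak1 encodes HRI, which responds to haem shortage and mitochondrial stress, and had 76.5, 70.9 and 69.7 CPM in mutant 1, 2 and 3, against 60.2, 72.4 and 63.2 CPM in control 1, 2 and 3. One control lay inside the mutant range, and the log2 fold change was 0.15 ± 0.13.

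**Figure D4:**
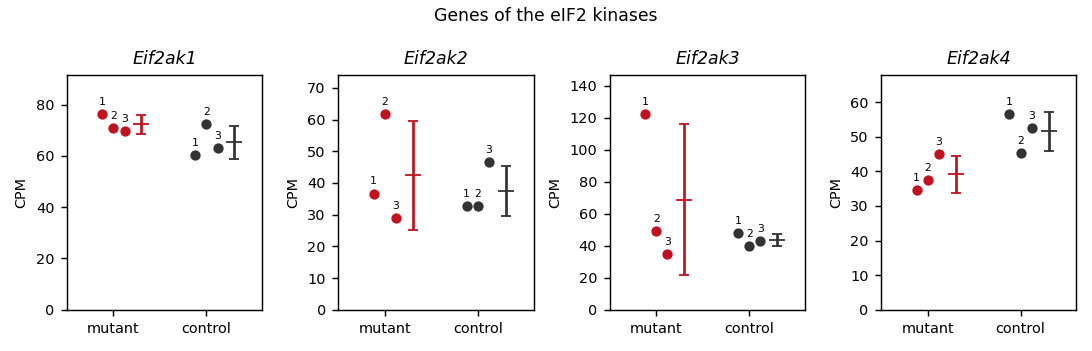
CPM (vertical axis, from 0) of the 4 eIF2 kinase genes in 3 mutant and 3 control libraries, with the mean ± SD. Eif2ak3 in mutant 1 stands apart at 123 CPM, and Eif2ak4 is the kinase gene whose groups do not overlap.

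The 14 eIF3 genes encode the scaffold that joins the small ribosomal subunit to eIF4G. Of these, 11 had a lower and 3 a higher mean in mutant, and the mean log2 fold change was -0.10. That mean was -0.010 without control 2, -0.018 without mutant 1, -0.060 without mutant 2, -0.16 without control 1 and -0.20 without mutant 3. Eif3c (ENSMUSG00000030738), a core subunit, had 372, 530.1 and 529 CPM in mutant 1, 2 and 3, against 614, 633 and 617 CPM in control 1, 2 and 3. The controls lay within a narrow range and all mutant values below it. The mean was 477 ± 90.9 CPM in mutant and 621 ± 10.2 CPM in control (SD, n = 3 each), a log2 fold change of -0.38 ± 0.17 (95% interval -0.77 to 0.01) with an edgeR adjusted p of 0.659.

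Within mutant 1 the subunits lay on both sides of the controls, with 9 below all of them and 3 above. The 3 above were Eif3f, Eif3h and Eif3k, at 0.51, 0.46 and 0.35 on the log2 CPM scale relative to the control mean. In the same library Eif3a, the largest subunit, was at -0.66, Eif3c at -0.74, Eif3j1 at -0.83 and Eif3j2 at -1.10. Eif3f and Eif3h encode the paired subunits with an MPN domain. Mutant 2 had 6 subunits below all controls and 0 above, and mutant 3 had 1 below and 3 above. For these counts, too, the share of all genes was not counted. As group means, the log2 fold changes were 0.22 ± 0.18 for Eif3f, 0.12 ± 0.19 for Eif3h and 0.20 ± 0.15 for Eif3k, and from -0.38 to -0.00 for the others. Eif3j1 and Eif3j2 are near-identical genes whose reads the authors' counting could split, and summed they gave -0.33.

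All 10 tested genes of eIF1, eIF5 and eIF6 had lower means in mutant, with a mean log2 fold change of -0.24. Without mutant 1 the mean was -0.083 and Eif5b was at 0.099, without control 2 it was -0.15 and Eif1b was at 0.087, and without mutant 3 it was -0.40. Eif1ad (ENSMUSG00000024841) had 54.5, 55.3 and 71.5 CPM in mutant 1, 2 and 3, against 72.7, 82.9 and 77.6 CPM in control 1, 2 and 3. Mutant 3 lay only just below the lowest control. Eif1ad had a log2 fold change of -0.36 ± 0.15 (95% interval -0.72 to -0.01) and an edgeR adjusted p of 0.645. Eif1, which guards the choice of the start codon, had 300.2, 384 and 443 CPM in mutant 1, 2 and 3, against 436, 502 and 458 CPM in control 1, 2 and 3. Mutant 3 lay inside the control range, and the log2 fold change was -0.31 ± 0.17.

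Eif5a encodes the hypusine-bearing factor, which acts mainly in elongation and termination, and per kilobase of exon it was the most abundant member, at 401 ± 98.6 CPM in mutant and 446 ± 96.7 CPM in control (SD, n = 3 each). It had 763, 881 and 1215 CPM in mutant 1, 2 and 3, against 903, 1323 and 951 CPM in control 1, 2 and 3. The groups overlapped, and the log2 fold change was -0.15 ± 0.23. Its paralog Eif5a2 had 23.8, 30.8 and 32.3 CPM in mutant 1, 2 and 3, against 32.2, 40.8 and 37.2 CPM in control 1, 2 and 3. Mutant 3 exceeded the lowest control by a small margin, and the log2 fold change was -0.34 ± 0.17. The remaining 6 genes of this group, Eif1a, Eif1ax, Eif1b, Eif5, Eif5b and Eif6, were between -0.26 and -0.17. In mutant 1 all 10 genes were below every control, against 7 in mutant 2 and 1 in mutant 3, with no share of all genes counted.

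**Figure D5:**
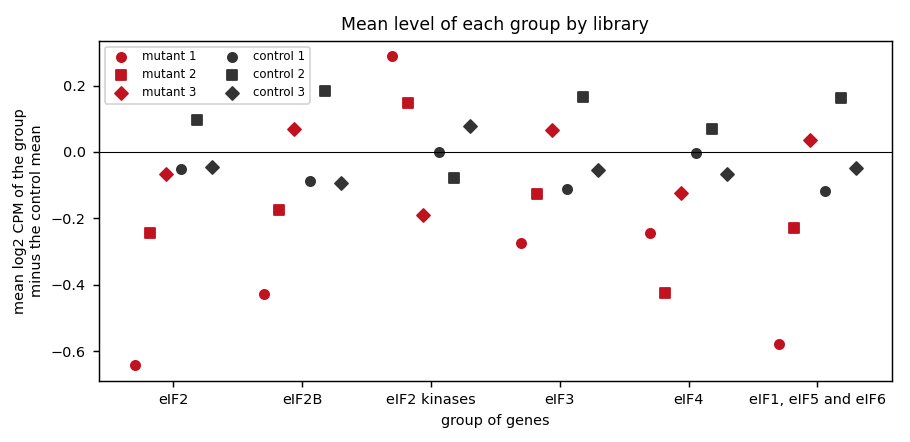
Mean log2 CPM of each group of factors minus the control mean (vertical axis) in the 3 mutant (red) and 3 control (dark) libraries. Mutant 1 is lowest for eIF2, eIF2B, eIF3 and the eIF1, eIF5 and eIF6 group and highest for the kinases, at -0.64 for eIF2 and 0.29 for the kinases. The low eIF4 mean of mutant 2 includes Eif4ebp3, which had no counts there.

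Further genes of translation control were counted in the same fit, and edgeR and DESeq2 called 0 members of each list below. At an unadjusted p of 0.05 by edgeR, 5 of 16 genes of the ATF4 list and 3 of 10 activation markers were lower. So were 2 of 12 genes of elongation and termination, while 2 of 9 of the MYC network were higher. The other lists had 0. Over all genes tested, 3.48% were lower and 4.14% higher at that threshold. Of 17 proteins that work with the initiation factors, such as poly(A)-binding proteins and their partners, 10 were lower and 7 higher in mutant, with a median log2 fold change of -0.06. Groups did not overlap for Dhx29, a helicase of the small subunit, at -0.38, and for Larp4, which binds poly(A), at -0.31. Over all genes tested, 7.48% were lower without overlap and 6.6% higher. Of 11 genes for the eIF2 phosphatase and regulators of the kinases, 10 were lower and 1 higher, with a median of -0.12. Hspa5, the chaperone BiP, had 289.8, 474 and 470.3 CPM in mutant 1, 2 and 3, against 493, 491 and 484 CPM in control 1, 2 and 3.

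The list on the ATF4 side of the integrated stress response, the arm that phosphorylated eIF2 switches on, had 16 of 16 genes lower in mutant with a median of -0.66. Its direction was known from these libraries when the list was made and is not independent evidence. Atf4 itself had 148, 318 and 307 CPM in mutant 1, 2 and 3, against 436, 341 and 445 CPM in control 1, 2 and 3. Psat1, an enzyme of serine synthesis, had 109, 249 and 225 CPM in mutant 1, 2 and 3, against 398, 360.1 and 409 CPM in control 1, 2 and 3. Phgdh, the first enzyme of that pathway, had a log2 fold change of -0.47. Atf4, Psat1 and Phgdh were the only 3 of the 16 genes whose groups did not overlap. That is 18.8% of the list, against 7.48% of all genes lower without overlap. The mean log2 level of the list was -1.74, -0.33 and -1.44 in mutant 1, 2 and 3, against 0.52, -0.80 and 0.28 in control 1, 2 and 3. Control 2 was the lowest control. The list mean includes genes with few counts. Vldlr, for example, had 0, 51 and 6 counts in mutant 1, 2 and 3, against 348, 26 and 229 in control 1, 2 and 3. Any link between this list and the levels of the initiation factor genes was not tested.

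For the mTORC1 and MNK genes that feed into eIF4E, 9 of 16 were lower and 7 higher, with a median of -0.08. Rps6kb2, an S6 kinase, had 36.9, 37.8 and 35.1 CPM in mutant 1, 2 and 3, against 25.8, 32.1 and 29.7 CPM in control 1, 2 and 3, and its groups did not overlap. Deptor, an mTOR inhibitor, was at -0.49. Among 12 genes of elongation and termination, 8 were lower and 4 higher with a median of -0.13. Eef2k, the kinase that inhibits elongation factor eEF2, had 15.5, 13.6 and 7.85 CPM in mutant 1, 2 and 3, against 22.3, 21.3 and 18.4 CPM in control 1, 2 and 3. Gspt2, a release factor gene near the detection limit, was at -1.46. The 7 genes for hypusine enzymes and polyamines, listed for the modification of eIF5A, had a median of -0.15, with 5 lower and 2 higher.

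In the MYC network, 3 of 9 genes were lower and 6 higher, with a median of 0.23. Mxd4, a MYC antagonist, had 253, 64.6 and 27.5 CPM in mutant 1, 2 and 3, against 19.6, 32.5 and 24.2 CPM in control 1, 2 and 3. Mxd1, another antagonist, had 126, 111 and 36.2 CPM in mutant 1, 2 and 3, against 35.7, 53.3 and 36.9 CPM in control 1, 2 and 3. For both genes mutant 1 and mutant 2 were above the controls and mutant 3 was within their range.

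Markers of T cell state differed between the libraries as well. Of 10 activation markers 9 were lower in mutant, with a median log2 fold change of -0.37. Groups did not overlap for 4 of the 10 (40%), Irf4 and Slc3a2 among them, all lower in mutant. The share of all genes lower without overlap was 7.48%, and for the naive markers the count was 0. The mean level of the activation markers was -0.96, -0.12 and -0.20 in mutant 1, 2 and 3, against 0.01, -0.04 and 0.03 in control 1, 2 and 3. Of 8 naive markers 7 were higher, with a median of 0.79 and a mean level of 1.67, 0.05 and -0.43 in mutant 1, 2 and 3, against -0.23, 0.21 and 0.02 in control 1, 2 and 3. Mutant 1 was the library with the lowest activation level, the highest naive level and the lowest initiation factor level, and the part of one in the other was not tested.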

How the data were processed

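Estimated counts per gene, without normalization, were deposited by the authors for 6 libraries. Per the submitters' processing notes, STAR 2.7.8a, Partek and the builds GRCm39 and mm39 were used. The annotation, counting settings and strandedness were not given in the sources used here. Overlapping and antisense genes therefore cannot be told apart by their reads. Of the values, 57.8% are whole. Whole counts had been assumed in the plan, and the estimated counts were rounded. Rounded counts were filtered with filterByExpr (minimum 10) and scaled by TMM in edgeR 4.0.16 under R 4.3.3. Mutant was compared with control by edgeR's quasi-likelihood test, robust and two-sided, with Benjamini-Hochberg adjustment over 18323 genes and a threshold of 0.05. The 863 rows without a symbol were tested under their IDs. Log2 CPM used a prior count of 2. With 3 libraries a group, an exact permutation test of 1 gene cannot go below 0.1. Alternatives were DESeq2 1.42.0, limma-voom (limma 3.58.1), other scalings and filters, the replicate block and leaving out each library.

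The members, lists and tests were chosen with earlier results of these data known. Values in every library were printed for members with a mean of 1 CPM or more and no overlap of groups, the 10 members with the smallest p, every eIF2B subunit and eIF2 kinase, and Eif4e, Eif4ebp1, Eif4ebp2, Eif4g1, Eif4a1, Eif2s1, Eif2s3x and Eif5a. From other lists the rule took up to 2 genes with the smallest p. Atf4, Vldlr, Myc, Eif4e3 and Eif2s3y, and single values beside a result, were added after their values were seen. Kilobases of exon are from GENCODE M21 (GRCm38), matched by ID for 54 of 54 members, and so differ from the authors' build. Promoter sequences are from RefSeq (GRCm38.p6). The test was also tried on counts simulated from the fit of these data.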

Additional observations from a re-analysis of the deposited data

How the results depend on the processing

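DESeq2 called 100 genes over the whole table, against 0 by edgeR, limma-voom, and edgeR with each other scaling or filter or without any 1 library. The number of members lower in every mutant library ran from 5 without mutant 2 to 25 without mutant 3, against 6. The shares of all genes in the same fits were 11.3% and 16.1%, against 7.48%. Eif4ebp2 changed sign under DESeq2 (-0.0066), limma-voom (-0.0089) and the replicate block (-0.010). With single libraries left out the log2 fold change changed sign in at least 1 fit for 24 of the 54 tested members. Of the 23 members with values in every library, these were Eif2ak2 (-0.17 to 0.39), Eif2ak3 (-0.044 to 0.97), Eif2b1 (-0.27 to 0.072), Eif2b2 (-0.020 to 0.13), Eif2b4 (-0.22 to 0.072), Eif4a1 (-0.28 to 0.053), Eif4e (-0.54 to 0.0078), Eif4ebp2 (-0.23 to 0.15), Eif4g1 (-0.28 to 0.10) and Eif5a (-0.37 to 0.037). The other 14 were among the 31 members given by range. The cause was not tested. Eif4ebp1 stayed between -1.88 and -1.22. Members higher in every mutant library numbered 3 under upper quartile scaling, 2 with a filter of 1 CPM and up to 7 without control 2, against 0. The 7 of 54 members without control 2 stood beside 13.1% of all genes in the same fit. For the upper quartile and 1 CPM settings the share of all genes was not counted. Libraries of the same number did not deviate together (correlations -0.048, -0.067 and -0.028), so the numbers were not taken as pairs. With the replicate block, edgeR called 0 genes and the mean log2 fold change of the members was -0.19, against -0.16. Among genes with an unadjusted p under 0.05, upper quartile scaling put 64.4% higher in mutant. The estimates for Eif4ebp3, Eif4a3l1 and the 4 untested members are limited by depth. The summed copies, the Eif2s3y sum, the DESeq2 fits without a library, and the member counts, signs and shares of all genes were added after seeing the data.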
